A study of Mus musculus with 6 samples.

Results

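Fibroblasts with markers of the lower dermis and the fascia beneath it were selected on measured values, and their position in the skin was not measured. A cell needed at least 4 UMIs (unique molecular identifiers, each a counted RNA molecule) of the markers Mfap5, Clec3b, Dpp4, Pi16 and Nov together. It also had to hold at least 500 genes, at most 10% mitochondrial UMIs, at least 15 UMIs of Col1a1, Col1a2 and Col3a1, at most 3 of Krt5 and Krt14, none of Pecam1 and Cdh5, and at most 1 UMI of the Wnt response genes Lef1, Sp5, Nkd1 and Axin2. The rule found 2437 cells among 40653 kept cells and 41594 barcodes in all. They are called marker-positive fibroblasts here. Beside them stand 12724 marker-low fibroblasts, which meet every other criterion with at most 3 marker UMIs, and 4274 Wnt-active fibroblasts, which hold at least 4 UMIs of the 4 Wnt genes and at most 3 of the markers. These 16 genes chose the cells, and their levels are given as a description with no test.

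The data are 6 droplet libraries that read the 3′ end of transcripts in dorsolateral and flank skin of CD1 mouse embryos. Each library pooled 3 to 4 embryos and was sorted only for cells that exclude the dye DAPI, so the library is the replicate. Controls were labelled WT, 2 libraries for E13.5 embryos and 2 for E14.5 embryos. Each stage also had 1 loss-of-function (LOF) library, whose embryos carried PDGFRalphaCreER(Lo), a Cre recombinase active in the presence of tamoxifen and driven in Pdgfra-expressing cells, beta-catfl/fl, a beta-catenin gene that Cre can delete, and mTmG, a reporter that switches from tdTomato to eGFP when Cre acts. Tamoxifen was given at E11.5 to the LOF embryos per the labels. The numbers 1 and 2 of the controls follow accession order, and the labels do not say whether controls with the same number share a litter, day or batch.

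The fascia is the loose connective tissue under the dermis, and its fibroblasts and those of the deepest dermis share genes such as Dpp4, a cell surface peptidase, and Pi16, a protein that marks a fibroblast population found in many organs. Mfap5 is a component of elastic microfibrils, Clec3b encodes tetranectin, and Nov (also called Ccn3) is a matricellular protein. In the upper dermis, by contrast, Wnt signals through beta-catenin switch on Lef1 and Axin2 and are needed for hair follicle formation.

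Libraries held 53461986 to 86446575 UMIs, and marker-positive fibroblasts had median depths of 8118.5 to 11692 UMIs, above marker-low fibroblasts in each library (7118.5 to 9843.5). No barcode of a marker-positive cell was shared between libraries. Several features set libraries apart from their group. The E14.5 control 1 and E14.5 LOF libraries resembled each other and differed from E14.5 control 2 in genes such as Igf2, a fetal growth factor, which read 4324 and 4718 CPM (UMIs of a gene per 1000000 UMIs of the summed cells) in the first pair and 673 CPM in E14.5 control 2. The transcript of beta-catenin, Ctnnb1, read 178, 151, 130 and 149 CPM in the marker-positive cells of E13.5 controls 1 and 2 and E14.5 controls 1 and 2, and 238 (E13.5) and 167 CPM (E14.5) in the LOF libraries. A 3′ tag can lie outside the deleted part of the gene, so this level does not check the genotype label.

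The reporter went against the WT label in part. With each cell thinned to 5000 UMIs, eGFP was detected in 24.1% of marker-positive cells of E13.5 control 2 and 16.4% of those of E14.5 control 2, beside 2.83% and 2.60% in controls 1 of those stages. In the LOF libraries the shares were 44.7% at E13.5 and 56.8% at E14.5, and without thinning they were 50.9% and 62.4%. Keratinocytes, which should lack it, gave 0.529% to 2.32% over the 6 libraries. The control 2 libraries therefore lay between control 1 and LOF libraries in marker-positive cells. In those libraries Wnt-active fibroblasts held eGFP more often, at 53.3% and 46.2%. The other reporter, tdTomato, was found in 96.6%, 90.6%, 11.7% and 55.7% of keratinocytes in E13.5 controls 1 and 2 and E14.5 controls 1 and 2. In the LOF libraries it was found in 95.9% (E13.5) and 18.4% (E14.5) of keratinocytes. Marker-positive fibroblasts held it in at most 9.25% of cells in any library, and in 1.40% (E13.5) and 1.90% (E14.5) in LOF. It was thus scarce in marker-positive cells whatever the label, and LOF cells without eGFP mostly lacked tdTomato as well. The comparisons of LOF with control below take the control 2 libraries as labelled.

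**Figure D1:**
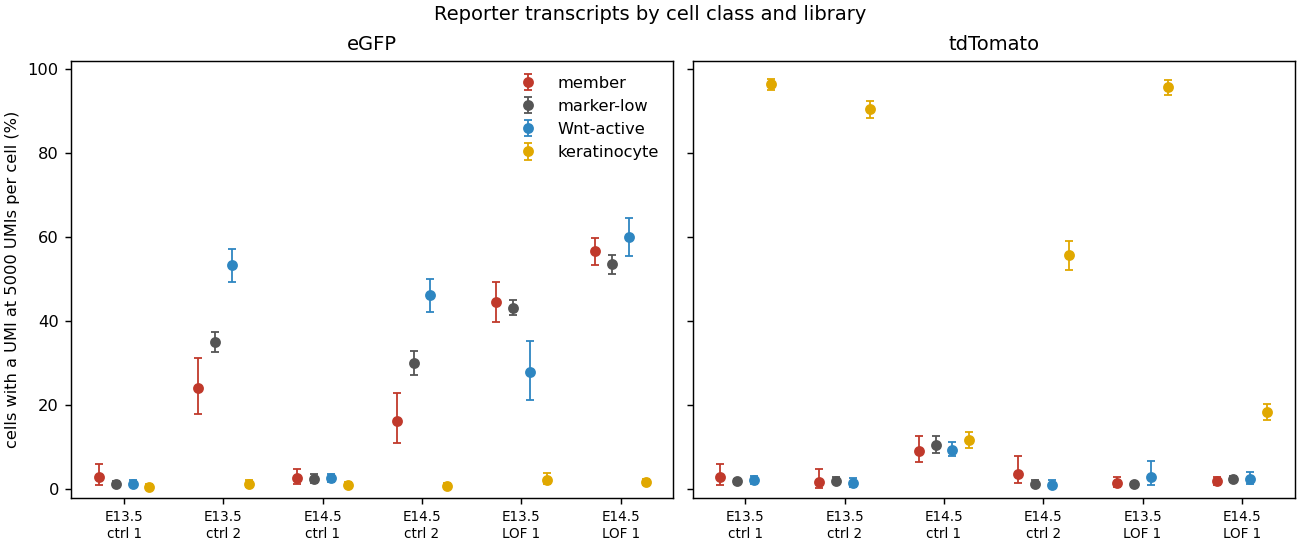
Share of cells with a UMI of eGFP (left) or tdTomato (right) after thinning to 5000 UMIs per cell, in percent with exact 95% binomial intervals, by library and cell class. Fibroblasts of both control 2 libraries sit above those of control 1 libraries for eGFP, with marker-positive cells (labelled member) below marker-low and Wnt-active cells there, and keratinocytes lie at or below 2.32% in every library.

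The 5 markers were not equally present. The Nov level in marker-positive cells was 316, 826, 534 and 683 CPM in the 4 controls and 97.2 (E13.5) and 345 CPM (E14.5) in LOF. Mfap5 read 156, 121, 291 and 488 CPM in the controls and 270 and 320 CPM in the LOF libraries. Clec3b read 147, 7.64, 471 and 313 CPM in the controls and 168 and 611 CPM in the LOF libraries. Clec3b was thus nearly missing from E13.5 control 2, where 6 of 188 cells held a UMI of it. Dpp4 was found in 6.88%, 1.60%, 40.5% and 22.2% of marker-positive control cells in that order, and in 8.22% and 34.1% of the LOF cells, while Pi16 was found in 3.72% to 25% of the cells of a library. At E13.5 the label of a Dpp4 and Pi16 fibroblast therefore rests on few cells. In marker-low cells the 2 genes were found in 0.0939% to 2.54%, and in keratinocytes Dpp4 was found in up to 5.32%.

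Each cell was also placed by its leading marker, the one with more of its marker UMIs than the other 4 together. Cells led by Nov made up 46.3% and 84.0% of marker-positive cells in the E13.5 controls, 25.7% and 32.8% in the E14.5 controls, and 9.36% and 9.49% in LOF. Cells led by Clec3b reached 46.8% in E14.5 LOF and 28.9% in E14.5 control 1. Cells led by Mfap5 reached 44.1% in E13.5 LOF. No marker led in 5.32% to 40.6% of the cells. Markers often occurred in the same cell: in E14.5 control 1, 259 of the 283 cells with Mfap5 also held Clec3b, and 145 of the 150 with Dpp4 also held Clec3b.

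**Figure D2:**
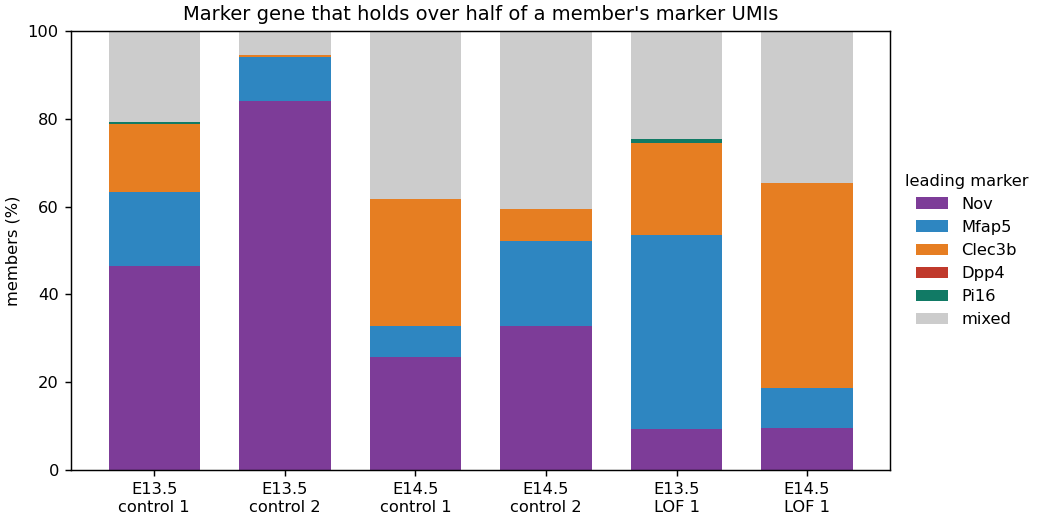
Share of marker-positive fibroblasts, in percent, by leading marker gene, for each library (grey, mixed, where no marker outweighs the others together). Nov leads in 84.0% of E13.5 control 2 and in under 10% of the LOF libraries.

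Cells led by Nov were set beside the other marker-positive cells, in genes outside the rule. The genes named were picked for a difference in the same direction in all 6 libraries, so that agreement is not a result. The share of all genes that agree in this way was not computed. P4ha2, a collagen prolyl hydroxylase subunit, was 69.0, 95.8, 96.6, 140 CPM in Nov-led cells of the 4 controls and 33.1, 51.4, 56.4 and 77.7 CPM in the others. Hoxc10, Cd55, Wnt2, Osr2 and Efemp1 were also higher in Nov-led cells in each library, by medians of 0.56, 0.60, 0.49, 0.52 and 0.55 on the log2(CPM + 20) scale. Ebf2, a transcription factor of adipogenic precursors, was lower in them by a median of 0.83 on that scale, since its Nov-led values were 27.4, 11.2, 40.0 and 13.6 CPM and those of the other cells 55.9, 25.7, 112 and 37.4 CPM in the 4 controls. Cxcl12, a chemokine, showed the same order with 262, 146, 93.7 and 79.2 CPM against 355, 184, 228 and 151 CPM. These are descriptions of cells divided by a marker of the rule and carry no test. Some groups were small: Nov led 158 of 188 cells in E13.5 control 2 and 41 of 438 in E13.5 LOF.

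Marker-positive fibroblasts made up 4.75% (218 of 4594; exact 95% binomial interval 4.15% to 5.40%) and 5.69% (188 of 3306; 4.92% to 6.53%) of the cells that passed the collagen, keratin and endothelial criteria in the E13.5 controls. In the E14.5 controls the shares were 10.98% (370 of 3370; 9.94% to 12.1%) and 6.19% (180 of 2907; 5.34% to 7.13%). In the LOF libraries they were 9.82% (438 of 4459; 8.96% to 10.7%) at E13.5 and 22.9% (1043 of 4551; 21.7% to 24.2%) at E14.5. Each LOF library was above both controls of its stage, and E14.5 control 2 lay close to the E13.5 controls. The means were 5.22% ± 0.666 (SD, n = 2) at E13.5 and 8.59% ± 3.39 (SD, n = 2) at E14.5. With 2 libraries against 2, the smallest two-sided p an exact permutation test can give is 0.333, so no test was made.

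Depth and the Wnt criterion both move these shares. At 5000 UMIs per cell the E13.5 LOF share was 4.44%, between the E13.5 control values of 2.39% and 5.94%, while the E14.5 LOF share was 19.6% beside 10.5% and 6.66%. Without Nov among the markers the E13.5 control shares were 2.35% and 0.786%, and the E13.5 LOF share was 8.21%. The Wnt criterion, at most 1 UMI of 4 genes, was met by 57.4%, 62.4%, 42.6% and 52.6% of the gated control cells and by 89.5% and 77.0% of the gated LOF cells, so that more LOF cells could enter. Among cells that met it and all other criteria but the markers, the share was 8.27% and 9.11% in the E13.5 controls, 25.8% and 11.8% in the E14.5 controls, 10.98% in the E13.5 LOF library and 29.8% in that of E14.5. On this scale the E14.5 LOF library differed less from E14.5 control 1 than the 2 controls of that stage differed from each other.

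**Figure D3:**
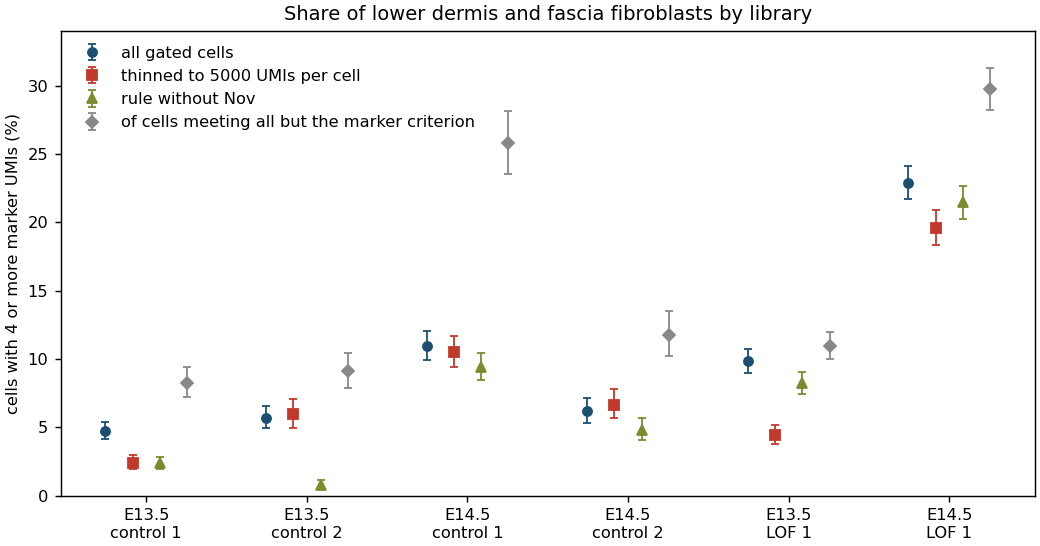
Share of cells with 4 or more marker UMIs by library, in percent with exact 95% binomial intervals, under 4 ways of counting. The E14.5 LOF library is the highest in each, at 19.6% to 29.8%, and the E13.5 LOF library falls to 4.44% when cells are thinned.

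Beyond the rule, a set of genes marked marker-positive cells in all 6 libraries. Of 9851 genes at 5 CPM or more, 14.1% were above marker-low cells in each of the 6 libraries and 16.3% were below, and cells were divided by their markers, so neither share is evidence of a difference. Klf4, a zinc finger transcription factor, read 440, 306, 481 and 749 CPM in marker-positive cells of the 4 controls and 158, 97.6, 85.7 and 122 CPM in marker-low cells. Its difference on the log2(CPM + 20) scale was 1.13 to 2.44 over the 6 libraries. Pdpn, a membrane glycoprotein, read 190, 180, 181 and 260 CPM against 73.9, 67.6, 34.4 and 39.2 CPM. Wnt2, a secreted Wnt ligand, read 91.1, 160, 100.0 and 195 CPM against 32.0, 56.1, 10.2 and 12.8 CPM. S100a6, Clu, Col14a1, a fibril-associated collagen, Emilin2, Opcml, Nrk, Spon2, Plac8, Creb5 and the growth factor Fgf7 were higher in all 6 as well.

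Klf4 is shown with the promoter sequence upstream of it because it had the largest median difference, 1.73, among the 20 named genes higher in marker-positive cells. The 250 bases before its RefSeq start lie at chr4:55532476-55532725 of GRCm38.p6 on the minus strand and overlap no exon of GENCODE vM21, and are printed 5′ to 3′ with the GC boxes (GGGCGG on either strand, 4 matches with overlaps counted) in capitals.
Klf4: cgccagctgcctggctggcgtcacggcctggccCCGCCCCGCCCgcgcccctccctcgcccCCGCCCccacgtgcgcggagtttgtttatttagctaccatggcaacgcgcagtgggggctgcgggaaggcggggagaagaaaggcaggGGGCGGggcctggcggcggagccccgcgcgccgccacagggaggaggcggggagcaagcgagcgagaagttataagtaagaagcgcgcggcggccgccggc
Of the 14 genes among the 20 highest that matched a RefSeq promoter, 5 (35.7%) held a GC box in this window, and 32.9% of all 27025 promoters did. The letters CCACCC, on either strand, were in 3 of the 14 (21.4%) and in 27.7% of all promoters. Both motifs were chosen after the levels of Klf4 were seen, and neither share is far from that of all promoters.

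Genes lower in marker-positive cells in all 6 libraries included Irx3, Irx1 and Irx5, homeobox factors, Acta2, smooth muscle actin, and Igfbp5 and Igfbp2, which bind insulin-like growth factors. Irx3 read 3.21, 5.87, 5.13 and 8.76 CPM in the 4 controls beside 29.8, 39.5, 48.3 and 59.7 CPM in marker-low cells. Acta2 read 79.1, 137, 46.9 and 26.9 CPM beside 271, 328, 162 and 129 CPM. Of 18 list genes known from Pi16 and Dpp4 fibroblasts that reached 5 CPM, 14 were higher than in marker-low cells in all 6 libraries and 1 lower, beside 14.1% and 16.3% of all genes, and the list overlaps in its origin with the markers that chose the cells. Of 17 matrix remodelling genes 11 were higher and 3 lower, of 29 region and dermal transcription factors 6 were higher and 6 lower, and of 20 growth factors and receptors 5 were higher and 5 lower.

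**Figure D4:**
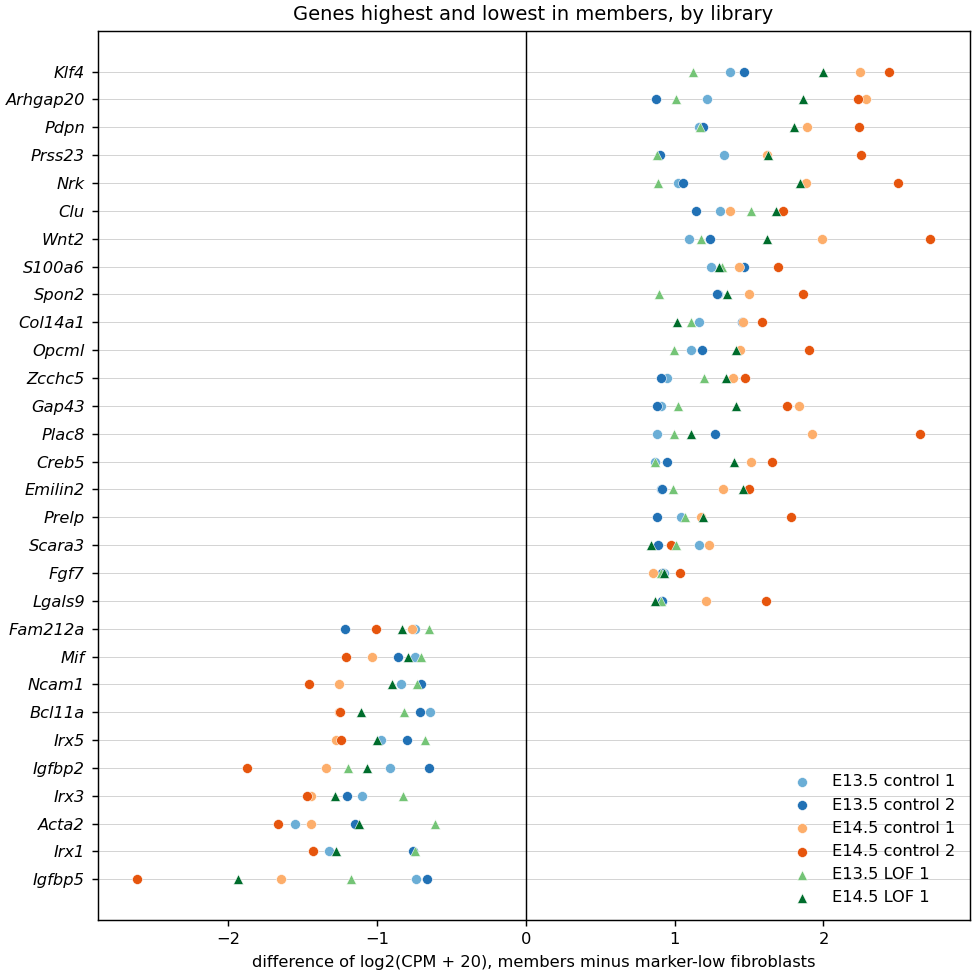
Difference of log2(CPM + 20) between marker-positive and marker-low fibroblasts for the 20 highest and 10 lowest genes, 1 point per library (circles, controls; triangles, LOF). All 6 points of each gene lie on the same side of 0, and Wnt2, Nrk and Plac8 reach 2.72, 2.50 and 2.65 in E14.5 control 2.

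Marker lists of other cell types were summed in the same cells. Schwann cell genes read 3.37 to 8.34 CPM, mesothelial genes 3.67 to 12.6 CPM and endothelial genes 15.5 to 27.6 CPM over the 6 libraries. Of 7 mesothelial markers 1 was at 0 in all 6. Of 7 endothelial markers 2 were at 0, Pecam1 and Cdh5, and the rule itself required that. Pericyte genes read 93.2 to 191 CPM, and at E13.5 they were higher in the marker-positive cells of the controls (139 and 100 CPM) than in marker-low cells (71.4 and 52.8 CPM). Muscle genes read 34.5 to 115 CPM and cartilage genes 32.9 to 100.3 CPM. Keratinocyte genes read 53.0 and 59.3 CPM in controls at E13.5, then 147 and 125 CPM at E14.5. That list includes Krt5 and Krt14, which the rule limited to 3 UMIs per cell. Red cell genes read 75.5 and 340 CPM, then 2653 and 4008 CPM, beside 568 and 1893 CPM in marker-low cells at E14.5. Red cell and keratinocyte transcripts thus moved with stage, and their part in the stage results was not tested.

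Between E13.5 and E14.5, 45 of 10033 genes changed in marker-positive cells of the controls, 26 higher and 19 lower at E14.5 (edgeR quasi-likelihood test, Benjamini-Hochberg adjusted p under 0.05), which is 0.449% of the genes tested, 0.259% higher and 0.189% lower. The named genes here follow the rule of highest and lowest changes, except Fabp4 and Fbn1 below, which are named as gene list members that passed. Sema3c, a secreted axon guidance protein, read 107 and 113 CPM at E13.5 and 356 and 387 CPM at E14.5, and its log2 fold change was 1.77 (SE 0.29; adjusted p = 0.0299 by edgeR's quasi-likelihood test). Dpt, encoding dermatopontin of the collagen matrix, rose from 99.6 and 107 CPM to 340 and 499 CPM. Nrk, a protein kinase, rose from 233 and 172 to 1233 and 645 CPM. Cd55, an inhibitor of complement, rose from 36.9 and 29.4 to 143 and 110 CPM. Both E14.5 libraries were above both E13.5 libraries for each of these.

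Collagen genes also rose: Col5a3 went from 3.21 and 0.587 CPM to 82.1 and 41.1 CPM, and Col6a6 from 23.7 and 16.5 CPM to 138 and 81.5 CPM, with log2 fold changes of 4.85 (SE 0.56) and 2.43 (SE 0.35). Fndc1 rose from 7.23 and 5.29 to 72.3 and 73.4 CPM, and Thsd4, S100a16, Wbscr17 and Fosb rose as well. Fabp4, a lipid carrier of adipocytes and endothelial cells, was at 0.402 and 0 CPM at E13.5 and 25.7 and 20.9 CPM at E14.5. Fbn1, fibrillin of the microfibrils, rose from 116 and 84.0 to 415 and 261 CPM. Krtdap, a keratinocyte differentiation gene, rose from 3.61 and 1.17 to 92.1 and 92.3 CPM. Keratinocytes of the same libraries held 68.8, 11.6, 544 and 474 CPM of Krtdap, and 6 of the 26 risen genes were at least 3 times higher in E14.5 keratinocytes than in marker-positive cells and 2 more were haemoglobins, which leaves 18. Their part in these 8 calls was not tested.

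Nnat, an imprinted membrane protein, fell from 206 and 284 CPM to 37.4 and 30.99 CPM, with a log2 fold change of -2.83 (SE 0.31). Bex2 fell from 101.99 and 145 to 22.2 and 13.5 CPM, Igfbp2 from 93.2 and 152 to 26.1 and 29.0 CPM, Tgfbi, a matrix protein induced by TGF-beta, from 101.99 and 119 to 25.7 and 32.3 CPM, and Ncam1, a cell adhesion molecule, from 123 and 86.4 to 31.3 and 25.6 CPM. Mgst3 and Gsta4, enzymes of the glutathione system, also fell. Of the 19 genes of the Pi16 and Dpp4 list tested, 4 rose (Sema3c, Cd55, Dpt and Fndc1) and none fell, beside 0.259% of all genes that rose. The list median was 1.10 on the log2 scale and that of all genes was 0.03. The list overlaps in its origin with the markers, and the markers that admitted cells differed by stage. Dpp4 was found in 6.88% and 1.60% of marker-positive control cells at E13.5 and in 40.5% and 22.2% at E14.5. The part of the rule in these list values was not tested. Without doublets 12 of the 45 calls remained, and Sema3c, Dpt, Nrk and Cd55 missed the threshold with an edgeR adjusted p of 0.053 each. Over 12 alternatives Fbn1 lost its call in 4, while Col5a3, Fndc1, Fabp4, Nnat and Bex2 kept theirs in all 12. Sema3c, Dpt, Nrk and Cd55 each lost theirs in 3. Their log2 fold changes over the 12 alternatives ran from 1.58 to 1.92 for Sema3c, 1.60 to 2.38 for Dpt, 1.78 to 2.50 for Nrk and 1.79 to 2.09 for Cd55, so the folds stayed near the values above. Without E14.5 control 2 there were 1091 calls, 43 of them among the 45, and without E13.5 control 1 there were 92.

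A stage effect that differed between marker-positive and marker-low fibroblasts was tested with both classes of each control library. It passed in 361 of 12881 genes (edgeR quasi-likelihood test, Benjamini-Hochberg adjusted p under 0.05), or 2.8%, with 199 (1.54%) relatively higher in marker-positive cells at E14.5 and 162 (1.26%) lower. In 146 of the 199 higher genes marker-positive cells were above marker-low cells at both stages on the log2(CPM + 20) scale. The median difference of the 199 was 0.25 at E13.5 and 0.87 at E14.5. In 81 of the 162 lower genes marker-positive cells were below at both stages. The median difference of the 162 was -0.00098 at E13.5 and -0.53 at E14.5. The shares of all genes tested with these orders were not computed. Only the stage was tested here, since the division into classes came from the markers, and a cell at E13.5, where the marker levels were lower, lay nearer to the 4 UMI threshold: 57 and 48 of the cells had exactly 4 marker UMIs at E13.5 and 47 and 15 at E14.5. The part of that in these calls was not tested.

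Wnt2 showed a difference of the stage effects of 2.11 on the log2 scale (SE 0.18; adjusted p = 1.34e-07, edgeR's quasi-likelihood test): it kept its level in marker-positive cells (91.1 and 160 CPM, then 100.0 and 195 CPM) and was lower in marker-low cells at E14.5 (32.0 and 56.1, then 10.2 and 12.8 CPM). Sema3c rose in marker-positive cells (above) and stood at 50.04 and 61.4, then 47.0 and 39.9 CPM in marker-low cells, a difference of 2.08 (SE 0.13). Ogn, encoding the proteoglycan osteoglycin, read 169 and 161, then 457 and 247 CPM, beside 192 and 197, then 184 and 126 CPM. Ptgis, the prostacyclin synthase, read 48.2 and 35.8, then 51.6 and 80.2 CPM, beside 34.3 and 31.6, then 20.6 and 17.9 CPM. Klf2 read 41.4 and 12.9, then 212 and 553 CPM, beside 25.4 and 16.4, then 68.3 and 155 CPM. Wnt2, Sema3c and Ptgis were higher in marker-positive than in marker-low cells in all 4 controls, by more at E14.5. Ogn was lower there in both E13.5 controls and higher in both E14.5 controls, and Klf2 was lower in E13.5 control 2 and higher in the other 3.

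Among genes that went the other way, Bcl11a, a transcriptional repressor, read 16.5 and 19.4, then 7.58 and 6.06 CPM in marker-positive cells and 37.1 and 44.6, then 45.9 and 42.0 CPM in marker-low cells (difference of -1.47, SE 0.28). Rspo1, a Wnt pathway agonist, read 24.9 and 29.4, then 11.97 and 14.8 CPM, beside 90.6 and 53.1, then 95.05 and 129 CPM. Thy1, a surface glycoprotein of fibroblasts, read 20.1 and 30.5, then 36.9 and 76.8 CPM, beside 24.7 and 29.5, then 109 and 194 CPM. Htra1, Crip1, Lix1, Cox4i2, Gadd45b, Bcl11b and Arhgdib also had lower stage effects in marker-positive cells.

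**Figure D5:**
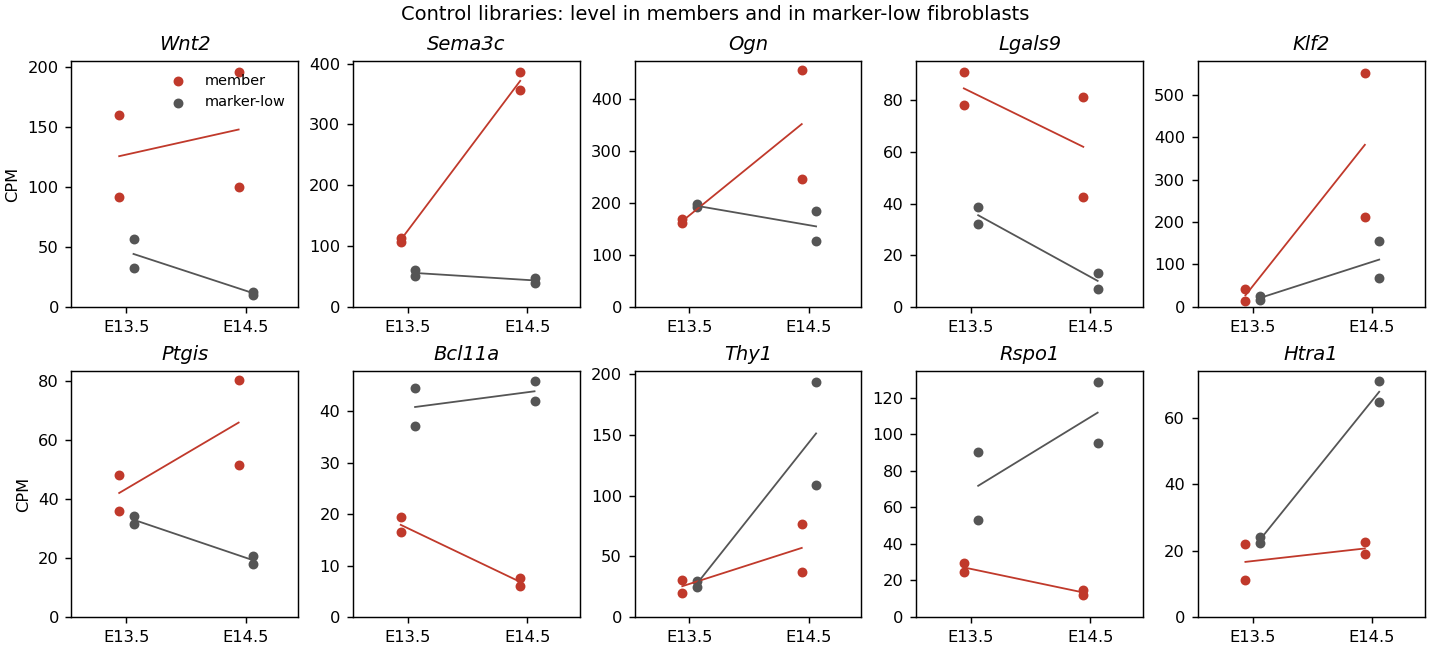
Level in CPM of 10 genes whose stage effect differed between the classes, in the 2 control libraries of each stage (points) with their means joined, for marker-positive (red, labelled member) and marker-low (grey) cells. Sema3c and Ogn are higher at E14.5 than at E13.5 in marker-positive cells and not in marker-low cells, and Bcl11a and Rspo1 are lower at E14.5 in marker-positive cells.

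By list, 10 of the 20 Pi16 and Dpp4 fibroblast genes were higher and none lower in marker-positive cells at E14.5 beyond the change in marker-low cells, beside 1.54% of all genes. They included Ly6a, a stem cell antigen (15.7 and 4.70, then 109 and 376 CPM, beside 8.003 and 1.10, then 2.83 and 6.39 CPM), Cd34, Igfbp6, Efhd1 and Creb5. This list overlaps in its origin with the markers that divided the classes. In marker-positive cells the summed level of the 5 markers itself went from 640 and 962 CPM at E13.5 to 1384 and 1571 CPM at E14.5. The count is therefore not independent of the division, and the part of the markers in it was not tested. The growth factor list held 6 higher, among them Wnt2, Gdf10 and Igfbp4, and 3 lower of 20, Pdgfrb, Wnt5a and Igfbp2. Of all genes 1.54% were higher and 1.26% lower. Of 16 proliferation genes 3 were lower (Mki67, Top2a and Birc5) and none higher, beside 1.26% of all genes. The summed level of that list fell from 3774 and 4262 CPM at E13.5 to 2886 and 2572 CPM at E14.5 in marker-positive cells, and was 4391 and 4267, then 4403 and 4006 CPM in marker-low cells. Of 18 other collagens 4 were lower (Col4a1, Col4a2, Col18a1 and Col23a1), basement membrane and membrane collagens, and none higher, beside 1.26% and 1.54% of all genes. Over 9 alternatives Col18a1 kept its call in 5 and changed sign in 1.

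Comparing LOF with control across both stages, with stage as a covariate, 1 of 11932 genes passed in marker-positive cells (0.00838%, edgeR quasi-likelihood test, Benjamini-Hochberg adjusted p under 0.05), and 7 passed by DESeq2. In edgeR 375 genes had an unadjusted p under 0.05, fewer than an even spread of p-values over the genes tested would give. The gene that passed in edgeR was Esr1, the oestrogen receptor. It is named here after its values were seen because the mean level put it outside the rule for named genes. Esr1 read 0.803 and 1.17, then 2.93 and 2.70 CPM in controls (E13.5, then E14.5) and 69.0 and 42.3 CPM in the LOF libraries, with a log2 fold change of 4.72 (SE 0.41; adjusted p = 0.0141). It was as high in marker-low cells of the LOF libraries (68.6 and 49.0 CPM) and 5.12 and 4.31 CPM in keratinocytes. As background, the CreER protein joins Cre to a ligand-binding domain of an oestrogen receptor. Whether these UMIs come from the transgene was not tested. Without E13.5 control 2 its adjusted p was 0.317 and without E13.5 LOF 0.0535 (edgeR), and no gene passed in either, while 4 passed without E14.5 control 1.

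None of the other named genes passed, although their values in the 6 libraries did not overlap within a stage. A gene stood above both controls at both stages in 14.1% of the 11932 genes tested and below both in 9.03%. Meox1, a homeobox factor of the somite, read 37.3 and 13.5, then 14.4 and 3.37 CPM in controls and 122 and 47.1 CPM in LOF (log2 fold change 2.20, SE 0.40; adjusted p = 0.556, edgeR). Fst, follistatin, an inhibitor of activin, read 26.9 and 7.64, then 119 and 61.3 CPM in controls and 159 and 216 CPM in LOF. Lsp1 read 85.9 and 69.3, then 69.65 and 46.5 CPM, and 203 and 110.0 CPM in LOF. Prph, peripherin, read 57.4 and 78.7, then 16.9 and 27.0 CPM in controls and 19.1 and 5.27 CPM in LOF. Cthrc1, a secreted matrix protein, read 128 and 138, then 169 and 208 CPM, and 43.0 and 121 CPM in LOF, and Bmp3 read 20.1 and 23.5, then 61.3 and 54.6 CPM, and 10.7 and 31.8 CPM. The Pi16 and Dpp4 list had 2 of 20 genes above and 5 below both controls at both stages.

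A LOF effect that differed between marker-positive and marker-low cells passed in 27 of 14370 genes (edgeR quasi-likelihood test, Benjamini-Hochberg adjusted p under 0.05), or 0.188%. The LOF effect was higher in marker-positive cells for 18 (0.125%) and lower for 9 (0.0626%). These are differences of the LOF effect, not of the level in marker-positive cells. Nppc, which encodes a natriuretic peptide, showed the largest of those named, 1.63 on the log2 scale (SE 0.15): it read 6.02 and 5.87, then 21.0 and 23.6 CPM in controls and 38.7 and 64.99 CPM in LOF, beside 35.8 and 23.9, then 91.9 and 128 CPM and 75.9 and 94.6 CPM in marker-low cells. Fst differed by 0.83 (SE 0.14), with marker-low values of 13.9 and 3.44, then 41.8 and 29.4 CPM in controls and 33.2 and 55.7 CPM in LOF. The growth factor Igf1 differed by 0.56 (SE 0.07): it read 522 and 480, then 537 and 185 CPM in controls and 341 and 438 CPM in LOF, beside 363 and 302, then 261 and 105 CPM and 162 and 150 CPM in marker-low cells. The LOF effect was also higher in marker-positive cells for Col4a1, Myl9, Ccdc80, Tcf4 and Smoc2. It was lower for Mmp2, a matrix protease, Adamts1, Dmrt2, Id2 and Dpt, and these differences were 0.40 to 0.54 in size. Compared with Wnt-active cells in place of marker-low cells, 73 genes passed and 3 of the 27 were among them, and the Igf1 difference became -0.74. The count was 48 without E13.5 control 1, 59 without E13.5 control 2, 86 without E14.5 control 1 and 26 without E14.5 control 2. With either LOF library left out, the fit held 1 LOF library, and most of the 27 genes no longer passed. Over 11 alternatives Dpt lost its call in 6, Myl9 and Dmrt2 in 5, Ccdc80 and Id2 in 4, Col4a1 and Adamts1 in 3, and Fst, Tcf4, Smoc2 and Mmp2 in 2, while Nppc lost it only against Wnt-active cells.

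The share of marker-positive cells was also read among LOF cells with and without an eGFP UMI, as values with no test. With eGFP read at 5000 UMIs per cell, they were 11.6% (192 of 1654) of E13.5 LOF cells with eGFP that met all other criteria and 11.1% (238 of 2152) of those without, and 33.8% (537 of 1590) and 30.98% (409 of 1320) at E14.5. The exact 95% binomial intervals overlapped at E13.5 (10.1% to 13.3% and 9.76% to 12.5%) and at E14.5 (31.4% to 36.2% and 28.5% to 33.6%). In the control 2 libraries the shares were 7.20% and 11.6% at E13.5 and 7.85% and 15.7% at E14.5, lower in cells with eGFP. A cell without an eGFP UMI may still express it, so these are shares of cells with a detected UMI. Each stage had 1 LOF library and the intervals cover counting error only, so their overlap does not show that the shares are equal. Cells without eGFP were also not shown to have escaped Cre, since tdTomato was found in only 1.40% (E13.5) and 1.90% (E14.5) of marker-positive LOF cells.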

How the data were processed

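The 6 libraries were deposited by the authors as matrices of raw UMI counts per gene and cell barcode, with rows for eGFP and tdTomato, per the file headers. Per the submitters' processing notes they used Cell Ranger, Seurat and mm10 (GRCm38), with versions not given in the sources used here. The rule was applied to raw counts. Counts were summed per library and cell class, and tested with edgeR 4.0.16 (TMM factors, filterByExpr, robust quasi-likelihood fit) in R 4.3.3, with library as a block where 2 classes were compared, and DESeq2 1.42.0 as an alternative. The steps were tested on simulated data. Named genes were the 12 largest changes per direction that passed, among genes whose mean log2 CPM reached 5 (for stage, with groups that did not overlap), or 6 by smallest p where fewer than 5 passed, and 20 higher and 10 lower beside marker-low cells. Members of the gene lists could also be named where they passed a test, at any mean level, or had the highest mean CPM of their list. Doublets were kept, and removing cells close to simulated doublets was an alternative. No barcode of a marker-positive cell was shared between libraries. Shares have exact (Clopper-Pearson) 95% intervals that cover counting error only. Pools of embryos are not known to be separate litters, so p-values measure the spread between these libraries. Where library was a block, they measure how the difference between the 2 classes varied over the libraries. Members, gene lists and alternatives were chosen with earlier results of these data known. Python 3.11.15, numpy 2.4.6, scipy 1.17.1, pandas 2.3.3 and matplotlib 3.10.9 were used.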

Additional observations from a re-analysis of the deposited data

Results flagged for a closer look

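A stage effect that differed between marker-positive and marker-low fibroblasts was found in 361 genes, and a LOF effect that differed in 27, by the test of the difference itself (edgeR). On the log2 scale the stage differences were 2.11 for Wnt2, 2.08 for Sema3c, 1.53 for Arhgap20, 1.51 for Apod, 1.40 for Ogn, 1.37 for Akap12, 1.36 for Lgals9, 1.35 for Pam, 1.32 for Ptgis, 1.31 for Klf2, 1.25 for C1qtnf3 and 1.22 for Pcdh7. They were -2.21 for Cox4i2, -1.74 for Lix1, -1.59 for Rspo1, -1.55 for Cdc42ep3, -1.47 for Bcl11a, -1.33 for Gadd45b, -1.33 for Thy1, -1.29 for Bcl11b, -1.23 for Htra1, -1.22 for Igfbp2, -1.21 for Crip1 and -1.21 for Arhgdib. The LOF differences were 1.63 for Nppc, 0.83 for Fst, 0.56 for Igf1, 0.52 for Col4a1, 0.50 for Myl9, 0.49 for Ccdc80, 0.42 for Tcf4 and 0.40 for Smoc2. They were -0.54 for Mmp2, -0.52 for Adamts1, -0.49 for Dmrt2, -0.42 for Id2 and -0.40 for Dpt. No group held 4 or more libraries, so no library was tested as an outlier.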

How the results depend on the processing

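The count of stage calls, 45, moved with most settings: 552 with no filter on low counts, 12 without doublets, 98 by DESeq2, 791 with all 6 libraries and genotype as a covariate, and 55 to 1091 when each library was left out in turn. With a replicate block it was 798, all 45 among them, though the labels do not pair same-numbered controls and 2 pairs are too few to show it. Deviations of same-numbered controls correlated at 0.328 over 4214 genes. With members not led by Nov, a setting chosen after seeing the data, 49 passed and 30 were among the 45. The LOF count of 1 was 46 with no filter, 7 by DESeq2, 16 with a 3-level batch inferred from these data, and 0 to 4 when each library was left out. The 361 stage-by-class calls were 582 against Wnt-active cells, 164 of them shared, and 400 to 485 with each library left out. The 27 LOF-by-class calls were 82 with no filter, 45 at 6 or more marker UMIs, 73 against Wnt-active cells, and 26 to 86 with each control library left out. With either LOF library left out, most of the 27 no longer passed.

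Against Wnt-active cells the stage difference changed sign for C1qtnf3 (-0.22), Cd248 (-0.25), Col18a1 (0.48), Igf1 (-0.59), Fstl1 (-0.033), Crabp2 (-0.15), Klf4 (-0.22), Bmp3 (-0.44) and Gpc3 (-0.82), and the LOF difference for Igf1 (-0.74). That of Tnmd ran from -0.34 (without E14.5 control 1) to 1.88 when each library was left out. The cause was not tested. Over the named genes, 52 stage values, 93 stage-by-class values, 39 LOF-by-class values and 2 LOF values no longer passed under an alternative, and 18 LOF values came to pass.

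The shares of 5.22%, 9.82% and 22.9% (E13.5 control, E13.5 LOF and E14.5 LOF) were 6.94%, 13.6% and 27.4% at 3 or more marker UMIs, 3.10%, 5.49% and 16.7% at 6 or more, 4.17%, 4.44% and 19.6% when thinned to 5000 UMIs, and 1.57%, 8.21% and 21.5% without Nov. With no limit on the Wnt genes the E13.5 control and E14.5 LOF shares were 6.31% and 25.2%. The E14.5 control share of 8.59% stayed within its SD under each. Dpp4 and Pi16 have few UMIs per cell, so a cell without a UMI is not shown to lack them.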
